A study of Mus musculus with 6 samples.

Results

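Ankyrins, spectrins and adducins build the membrane skeleton of axons. Their transcripts were followed across retinal ganglion cells of the mouse (RGCs, which send their axons through the optic nerve) in 9 genes, namely Ank1, Ank2, Ank3, Sptan1, Sptb, Sptbn1, Sptbn4, Add1 and Add2. They were picked by gene symbol from the 10361 gene names in the deposited table, and all 9 had values in every library and passed the filter on low values (mean FPKM of 1 or more). FPKM scales fragment numbers by transcript length and sequencing yield, so levels can be compared between genes. Ank2 and Sptbn4 are less comparable, since Ank2 is summed over 2 loci and the Sptbn4 locus also holds another gene. The 3 groups hold 2 poly-A RNA libraries each, all from wild-type mice of the strain labelled C57/6NCrl. Adult miR-1247 RGCs had received an AAV2 vector that expresses a miR-1247-5p mimic, an imitation of that microRNA. Adult control RGCs, labelled mCherry, had received AAV2 with a scrambled shRNA mimic. RGCs of embryonic day 18 (E18) were untreated. Each adult condition was a pool of 10 retinas, from which about 5000 mCherry-positive cells were sorted after panning on Thy1 antibody. The E18 cells, about 50000, were panned on Thy1 and not sorted. Age, vector, sorting and cell number therefore cannot be told apart between adult and E18 libraries. Whether the paired libraries of a group are separate animals is not stated in the labels, so p-values measure only their spread, which may be technical.

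Spectrin is a long, flexible tetramer of alpha and beta chains. In axons these tetramers space rings of actin filaments at a regular interval beneath the membrane, and adducins cap the filaments of the rings. Ankyrins sit on beta spectrin and hold ion channels and cell adhesion molecules in place, most densely at the axon initial segment, where action potentials start, and at nodes of Ranvier. RGC axons carry an initial segment inside the retina and become myelinated behind the eye.

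The 11 RGC markers used to check the labels were all present. Their summed level was 2060 and 2033 FPKM in miR-1247 libraries, 3332 and 3273 FPKM in control libraries and 5246 and 5229 FPKM in E18 libraries. Single markers differed both ways in adult control against E18 RGCs. Nefh (17.5-fold), Thy1 (2.43-fold) and Slc17a6 (2.30-fold) were called higher in control and the other 8, Sncg and Tubb3 among them, lower. Summed FPKM of the table ran from 339224 to 392238 per library, and libraries of a group correlated at 0.980 to 0.985 (Pearson's r of log2 values across 9987 genes, which are not independent). The table gives no read counts, and the depth behind each value is unknown. A total of 11 red blood cell markers (globins, Alas2, Slc4a1 and others), chosen because Ank1 and Sptb are also the ankyrin and beta spectrin of red blood cells, were not analysed here. Values of markers of other cell types are given with the comparisons below, though not for every list in each.

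Adult control RGCs were set against E18 RGCs to see how the membrane skeleton differs between these groups. Ank1 and Sptb were 6.46-fold and 3.43-fold higher in adult control than in E18 RGCs, while the alpha chain Sptan1 and the adducin Add2 were 2.74-fold and 3.04-fold lower. The main ankyrins and the main beta spectrin of E18 RGCs, Ank2, Ank3 and Sptbn1, differed by at most 1.17-fold. Of the 9 genes, 3 were called higher and 4 lower in adult control RGCs (limma, adjusted p under 0.05). Of all 9987 genes tested, 70.1% were called in this comparison, 29.8% higher and 40.2% lower, so a count of 7 called genes is near the background. In bulk RNA, fewer cells of a type and less RNA per cell cannot be told apart.

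**Figure D1:**
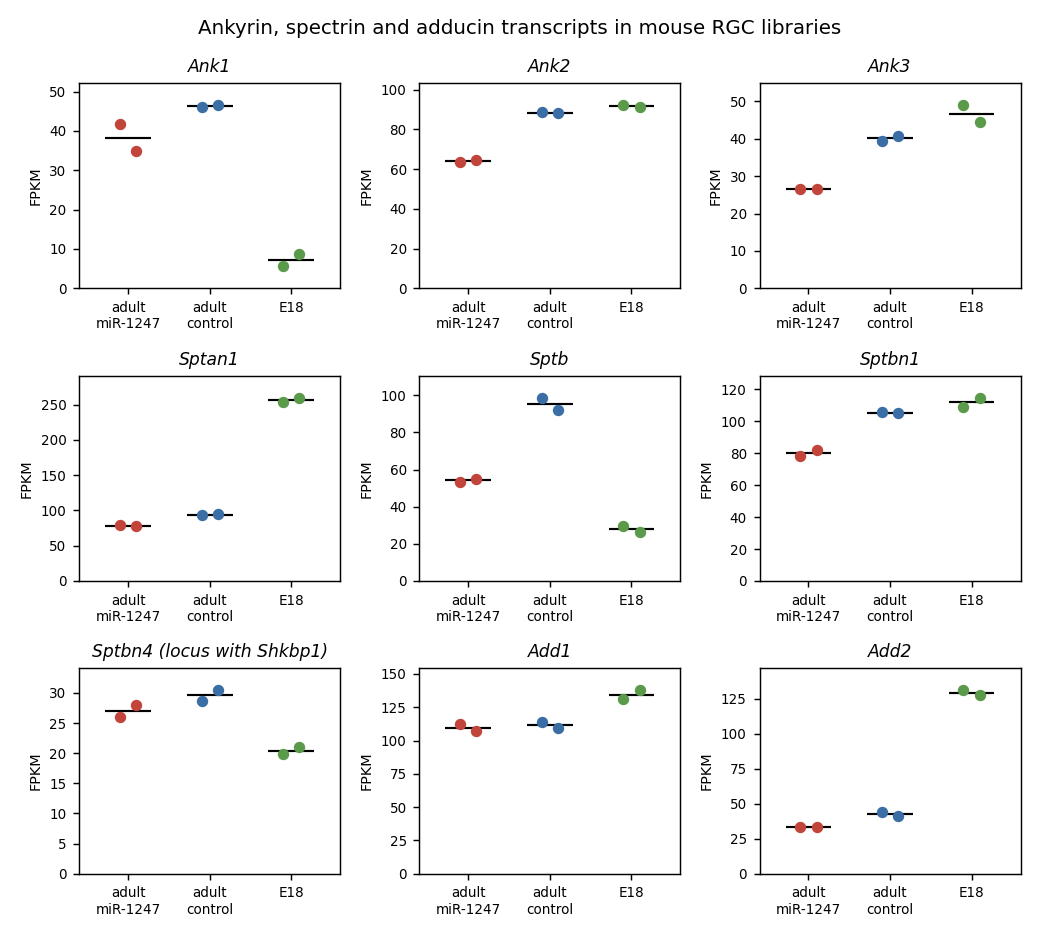
FPKM of the 9 genes in each library (points, 2 per group) of adult miR-1247, adult control and E18 RGCs, with group means as lines and every vertical axis starting at 0. Ank1 and Sptb stand higher in adult control libraries than in E18 libraries, Sptan1 and Add2 lower, and Ank2, Ank3, Sptb and Sptbn1 are lower in miR-1247 than in control libraries.

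Among the ankyrins, Ank1 (ankyrin-R, chr8:23464860-23640516 in mm39) had 46.0 and 46.6 FPKM in adult control libraries, against 5.66 and 8.69 FPKM in E18 libraries. The groups did not overlap, and the log2 fold change was 2.56 ± 0.18 (SE, adjusted p = 3.13e-05). Ank2 (ankyrin-B, which serves the axon shaft) had 88.7 and 88.2 FPKM in control and 92.4 and 91.1 FPKM in E18 libraries. It did not pass the test, with a log2 fold change of −0.052 and a 95% interval from −0.18 to 0.076. Ank3 (ankyrin-G, the organiser of the axon initial segment and nodes, chr10:69234826-69864436) had 39.6 and 40.7 FPKM in control libraries, against 49.1 and 44.4 FPKM in E18 libraries. Its log2 fold change of −0.22 ± 0.080 passed narrowly (adjusted p = 0.0471). That call was lost without each library other than E18 library 2, under median ratio scaling (−0.062) and with equal totals (−0.14). It was also lost with no variance trend (limma adjusted p = 0.0841), with only the 4 libraries compared (0.0634) and with a replicate block (0.0689). The Ank3 locus also overlaps the start of Cdk1 on the opposite strand, and reads of both strands cannot be told apart with the kit that the labels name.

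The sum over the 3 ankyrins was 174 and 176 FPKM in control libraries, against 147 and 144 FPKM in E18 libraries. Ank1 made up 26.4% and 26.6% of that sum in control libraries, against 3.84% and 6.02% in E18 libraries. Ank2 held 50.9% and 50.3% in control and 62.8% and 63.2% in E18 libraries, and so was the most abundant ankyrin in each. Ank3 held 22.7% and 23.2% in control and 33.4% and 30.8% in E18 libraries. The ratio of Ank1 to Ank3 was 1.16 and 1.15 in control libraries, against 0.115 and 0.195 in E18 libraries. In none of these shares and ratios did the control and E18 libraries overlap. With 2 libraries against 2, an exact permutation test cannot give a two-sided p below 0.333, so the shares and ratios here and below are descriptions.

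The Ank2 values are sums over 2 assembled loci. The larger (chr3:126715259-127202907) covers most of the gene, and the smaller (chr3:127289535-127298665) covers its most upstream end and a part of the long noncoding RNA gene Gm64355. In GENCODE, 4 of the 29 Ank2 transcripts have an exon in the smaller locus. That locus had 2.70 and 5.49 FPKM in miR-1247 libraries, 13.2 and 13.2 FPKM in control libraries and 11.1 and 6.68 FPKM in E18 libraries. Fitted by itself it did not pass between control and E18 (log2 fold change 0.56, adjusted p = 0.165), and neither did the larger locus (−0.14, adjusted p = 0.0712).

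Among the spectrins, Sptb (beta-I spectrin, chr12:76627261-76757321) had 98.8 and 92.4 FPKM in control libraries, against 29.4 and 26.3 FPKM in E18 libraries. The log2 fold change was 1.74 ± 0.080 (adjusted p = 4.28e-06). Sptan1 (alpha-II spectrin, the alpha chain of cells other than red blood cells, chr2:29855572-29921463) had 92.9 and 94.9 FPKM in control libraries, against 254 and 260.2 FPKM in E18 libraries. It fell in the adult by 1.44 on the log2 scale (SE 0.049, adjusted p = 1.13e-06). The promoters of these genes are shown because they are the alpha and the beta chain with the largest changes, in opposite directions. They run from 250 bases before to 50 bases after the RefSeq start (GRCm38.p6), and capitals mark the GC box GGGCGG on either strand.
Sptan1, chr2:29965310-29965609, + strand: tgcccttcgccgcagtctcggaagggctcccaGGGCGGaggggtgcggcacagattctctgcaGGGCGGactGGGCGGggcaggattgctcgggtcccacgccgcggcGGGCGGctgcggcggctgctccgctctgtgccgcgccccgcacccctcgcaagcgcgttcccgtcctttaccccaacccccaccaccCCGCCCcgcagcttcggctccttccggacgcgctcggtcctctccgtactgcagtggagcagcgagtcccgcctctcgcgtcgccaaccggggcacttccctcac
Sptb, chr12:76710498-76710797, − strand: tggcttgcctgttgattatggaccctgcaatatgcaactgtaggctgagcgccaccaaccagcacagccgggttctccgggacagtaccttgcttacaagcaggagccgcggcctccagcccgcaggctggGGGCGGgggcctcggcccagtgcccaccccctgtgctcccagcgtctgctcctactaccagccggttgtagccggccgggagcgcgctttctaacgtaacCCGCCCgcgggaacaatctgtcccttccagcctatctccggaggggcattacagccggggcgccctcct
The Sptan1 promoter held 5 GC boxes and 37 CG pairs, and the Sptb promoter 2 GC boxes and 21 CG pairs. The GC box was in 35.7% of the 32851 promoters of that table, whose median was 7 CG pairs. Neither of them held a CCAAT box (CCAAT, in 37.4% of all promoters) or the GATA motif AGATAA (in 11.2%) on either strand.

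The other beta chains moved less. Sptbn1 (beta-II spectrin, the beta chain of the axon shaft, chr11:30049391-30230491) had 105 and 105 FPKM in control libraries, against 109 and 115 FPKM in E18 libraries. It did not pass the test (log2 fold change −0.088, 95% interval from −0.22 to 0.048). Sptbn4 encodes beta-IV spectrin, the beta chain of initial segments and nodes. Its locus (chr7:27041558-27147111) also holds the neighbouring gene Shkbp1, so its values are those of both genes. This locus had 28.7 and 30.5 FPKM in control libraries, against 19.8 and 21.1 FPKM in E18 libraries, a log2 fold change of 0.51 ± 0.090 (adjusted p = 0.00215).

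Summed over the 3 beta chains among the 9 genes, control libraries had 233 and 228 FPKM, against 158 and 162 FPKM in E18 libraries. Sptb made up 42.4% and 40.6% of that sum in control libraries, against 18.6% and 16.2% in E18 libraries. Sptbn1 held 45.3% and 46.1% in control and 68.9% and 70.8% in E18 libraries. The ratio of Sptan1 to these summed beta chains was 0.399 and 0.417 in control libraries, against 1.61 and 1.60 in E18 libraries. The alpha chain was thus above the sum of these 3 beta chains at E18 and below it in the adult. Leaving out the Sptbn4 locus, which Shkbp1 shares, gave ratios of 0.455 and 0.481 in control and 1.84 and 1.84 in E18 libraries.

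**Figure D2:**
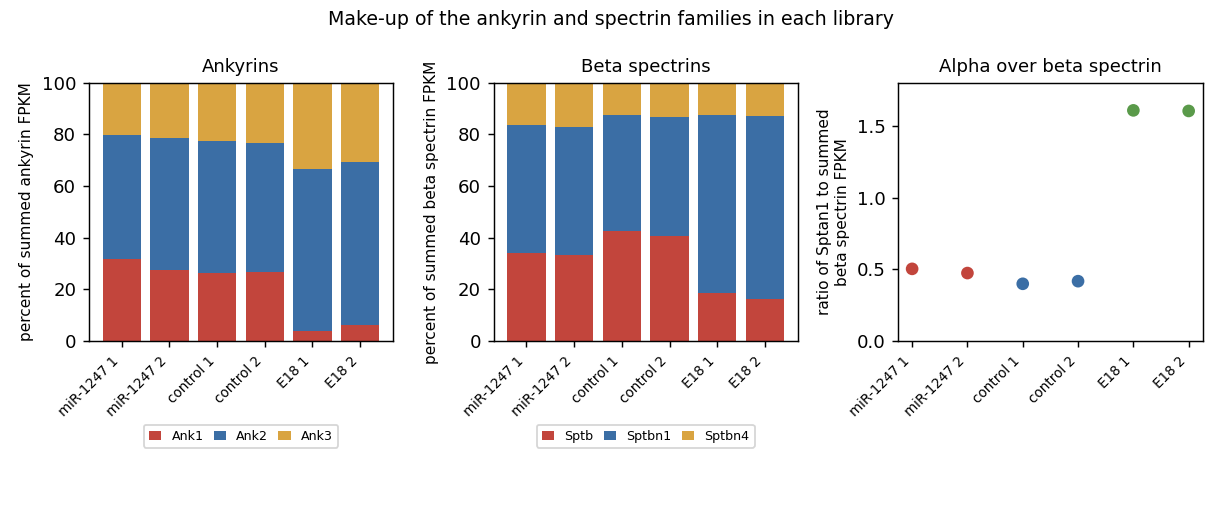
Share of each gene in the summed ankyrin FPKM (left) and the summed FPKM of Sptb, Sptbn1 and the Sptbn4 locus (middle), in percent, and the ratio of Sptan1 to that beta spectrin sum (right), for each of the 6 libraries in the order miR-1247, control, E18. The share of Ank1 is 26.4% to 31.6% in adult libraries and 3.84% to 6.02% in E18 libraries, and the ratio is 0.399 to 0.503 in adult libraries and 1.60 to 1.61 in E18 libraries.

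The adducins form hetero-oligomers of an alpha chain, Add1, with a beta or gamma chain. Add2 (beta-adducin, chr6:86005676-86101392) had 44.2 and 40.9 FPKM in control libraries, against 131 and 128 FPKM in E18 libraries. It fell in the adult by 1.58 on the log2 scale (SE 0.067, adjusted p = 3.14e-06). Add1 (chr5:34731008-34789652) had 114 and 109 FPKM in control libraries, against 131 and 138 FPKM in E18 libraries. Its log2 fold change of −0.27 ± 0.056 passed the test (adjusted p = 0.00487) but not under median ratio scaling (−0.11, adjusted p = 0.116) or with equal totals (−0.19, adjusted p = 0.0889). The ratio of Add2 to Add1 was 0.388 and 0.374 in control libraries, against 0.999 and 0.926 in E18 libraries. Add3, the gamma chain, is not among the 9 genes. It had 14.0 and 14.9 FPKM in control libraries, against 6.15 and 6.46 FPKM in E18 libraries (log2 fold change 1.08 ± 0.12, adjusted p = 0.000262).

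The median over all genes lay at −0.16 (log2, adult control over E18) as deposited and at −0.018 under median ratio scaling. Relative to that median, Ank1 stood at 2.72, Sptb at 1.91, Sptbn4 at 0.67, Sptan1 at −1.28 and Add2 at −1.42, while Ank2 stood at 0.11, Sptbn1 at 0.074, Ank3 at −0.054 and Add1 at −0.11. Under median ratio scaling 3 of the 9 genes were called higher and 2 lower, since Ank3 and Add1 lost their calls, and the same was seen with equal totals. The calls of Ank1, Sptb, Sptbn4, Sptan1 and Add2 held under all 15 alternatives. Markers of other cells differed between these groups as well. The 3 amacrine markers with values (of 8) summed to 130.3 and 152 FPKM in control libraries, against 1.13 and 3.41 FPKM in E18 libraries. The 5 markers of Müller glia and astrocytes (of 9) summed to 1409 and 1063 FPKM in control libraries, against 167 and 167 FPKM in E18 libraries. Glul, Aldoc, Dkk3 and Apoe were called higher in control, whereas Vim was called lower, with 1.60 and 0.635 FPKM in control libraries, against 44.5 and 41.0 FPKM in E18 libraries. The 3 rod markers (of 8) summed to 46.8 and 45.6 FPKM in control libraries, against 6.41 and 5.57 FPKM in E18 libraries, and the 2 progenitor markers (of 6) to 19.5 and 18.6 FPKM, against 52.9 and 49.5 FPKM. Their part in the differences of the membrane skeleton was not tested.

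The order of the 9 genes by level changed between the groups. In E18 RGCs Sptan1 came first, followed by Add1, Add2, Sptbn1, Ank2, Ank3, Sptb, the Sptbn4 locus and Ank1. Libraries of neighbours in that order did not overlap. Add1 and Add2 were barely apart, at 131.3 and 131.2 FPKM in E18 library 1. In adult control RGCs the order was Add1, Sptbn1, Sptb, Sptan1, Ank2, Ank1, Add2, Ank3 and the Sptbn4 locus. There Sptb and Sptan1 overlapped (92.4 to 98.8 and 92.9 to 94.9 FPKM) and no other neighbours did. In miR-1247 RGCs the order was Add1, Sptbn1, Sptan1, Ank2, Sptb, Ank1, Add2, the Sptbn4 locus and Ank3, and overlaps were seen between Sptbn1 and Sptan1 and between the Sptbn4 locus and Ank3.

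**Figure D3:**
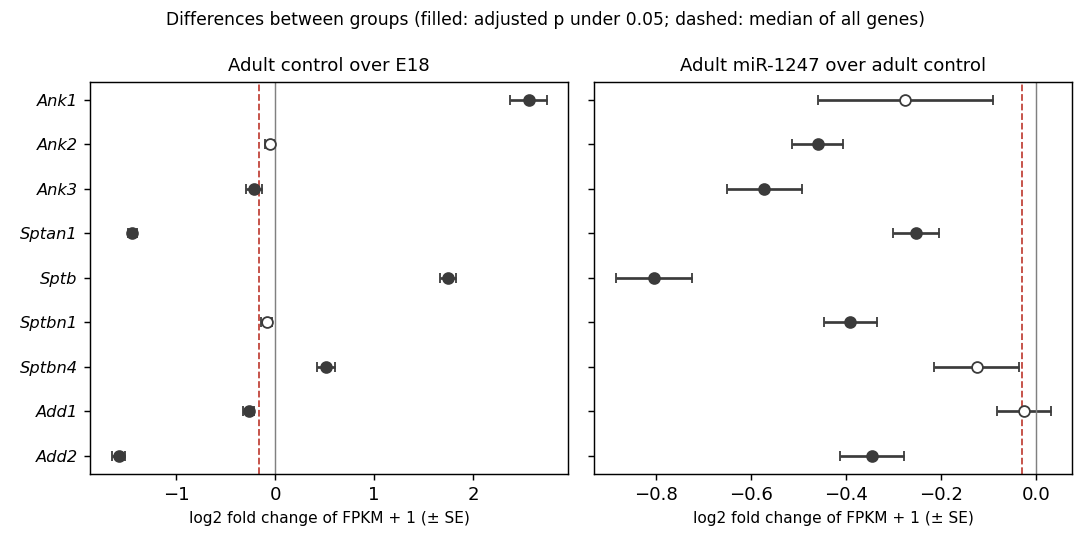
Log2 fold change of FPKM + 1 with its SE for each of the 9 genes, adult control over E18 (left) and adult miR-1247 over adult control (right). Filled points passed an adjusted p of 0.05, and the dashed line is the median of all 9987 genes. The left panel spans Ank1 at 2.56 to Add2 at −1.58, and in the right panel all 9 points lie below 0.

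The second comparison asks what differed with the miR-1247-5p mimic in place of the scrambled one in adult RGCs. All 9 log2 fold changes were below 0 as deposited, but that of Add1 (−0.025) became 0.011 under median ratio scaling. The share of all genes below 0 was not counted. Of the 9 genes 6 were called lower and none higher, and at an unadjusted p under 0.05 limma also gave 6 and 0. Of all genes, 9.75% were called in this comparison at the adjusted threshold, 3.53% higher and 6.22% lower. The share of all genes at an unadjusted p under 0.05 is not given here. The calls of all genes divided into 353 higher and 621 lower as deposited, 460 and 528 under median ratio scaling and 136 and 776 with equal totals. The median fold change of the 9 genes was −0.35 and that of all genes −0.029 (log2). The mature miR-1247-5p, from RefSeq (GRCm38.p6), is shown because its seed, bases 2 to 8 in capitals, defines the matches searched for.
mmu-miR-1247-5p: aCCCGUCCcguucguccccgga
No match to the seed (GGACGGG), nor to its bases 2 to 7 (GACGGG), was found in the 3′ UTR of the canonical GENCODE transcript of any of the 9 genes. Among the 9609 tested genes with such a UTR, 3.30% held the 7-base and 9.03% the 6-base match. Other transcripts and coding sequence were not searched.

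Sptb had the largest difference of the 9. It had 53.5 and 55.0 FPKM in miR-1247 libraries, against 98.8 and 92.4 FPKM in control libraries. The log2 fold change was −0.81 ± 0.080 (adjusted p = 0.00512), and of the 6 calls this one alone held in all 15 alternatives, each library left out included. Ank3 had 26.6 and 26.7 FPKM in miR-1247 libraries, against 39.6 and 40.7 FPKM in control libraries (log2 fold change −0.57 ± 0.080, adjusted p = 0.0136). Ank2 had 63.6 and 64.4 FPKM in miR-1247 libraries, against 88.7 and 88.2 FPKM in control libraries (−0.46 ± 0.054, adjusted p = 0.00838). Taken by itself, the smaller Ank2 locus at the upstream end fell by 1.53 on the log2 scale (SE 0.32, adjusted p = 0.0413) and the larger by 0.32 (SE 0.057, adjusted p = 0.0278).

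Sptbn1 had 78.2 and 81.7 FPKM in miR-1247 libraries, against 105 and 105 FPKM in control libraries (log2 fold change −0.39 ± 0.057, adjusted p = 0.0149). Smaller differences passed for Add2, with 33.2 and 33.3 FPKM in miR-1247 libraries, against 44.2 and 40.9 FPKM in control libraries (−0.35 ± 0.067, adjusted p = 0.0306). Sptan1 had 79.3 and 78.0 FPKM in miR-1247 libraries, against 92.9 and 94.9 FPKM in control libraries (−0.25 ± 0.049, adjusted p = 0.0299). The libraries of these 6 genes did not overlap between the groups. That is a description and adds nothing to the calls, since the share of all genes without overlap was not counted.

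The other 3 genes did not pass. Ank1 had 41.7 and 34.8 FPKM in miR-1247 libraries, against 46.0 and 46.6 FPKM in control libraries, with a 95% interval of the log2 fold change from −0.72 to 0.17. The Sptbn4 locus had 26.1 and 28.04 FPKM in miR-1247 libraries, against 28.7 and 30.5 FPKM in control libraries, with an interval from −0.34 to 0.090. Add1 had 112 and 107 FPKM in miR-1247 libraries, against 114 and 109 FPKM in control libraries, with an interval from −0.16 to 0.11. Add1 was the one gene whose libraries overlapped between the groups. That too is a description, since the share of all genes without overlap was not counted.

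With 1 library left out, the log2 fold change ran from −0.85 to −0.76 for Sptb, −0.59 to −0.55 for Ank3 and −0.40 to −0.29 for Add2. E18 libraries enter this comparison only through the shared estimate of the spread, and calls of all genes fell as well when 1 library was left out. The count of 6 rests on every library. It was 1 without either miR-1247 library, 2 without either control library and 4 without either E18 library, and it was 2 with no variance trend. Ank2 lost its call without either miR-1247 library, Ank3 and Sptbn1 without each of the 4 adult libraries, and Sptan1 and Add2 without each of the 6. Markers of RGCs were lower in the same libraries. All 11 RGC markers were called lower in miR-1247 libraries, with a median log2 fold change of −0.80, and their summed levels were 2060 and 2033 FPKM, against 3332 and 3273 FPKM in control libraries. The 5 markers of Müller glia and astrocytes summed to 1825 and 1713 FPKM in miR-1247 libraries, against 1409 and 1063 FPKM in control libraries. Most of that difference was Glul, with 795 and 632 FPKM in miR-1247 libraries, against 463 and 122 FPKM in control libraries, and Glul was not called. Of the 5, Dkk3 was called higher and the other 4 were not called, with Aldoc at a mean of 522 FPKM in miR-1247 and 521 FPKM in control libraries. The 3 amacrine markers summed to 173 and 205 FPKM in miR-1247 libraries, against 130.3 and 152 FPKM in control libraries, and none of the 3 was called (limma), with 1, Gad2, higher at an unadjusted p under 0.05. The 3 rod markers summed to 26.9 and 24.3 FPKM in miR-1247 libraries, against 46.8 and 45.6 FPKM in control libraries, and Rom1 was called lower. The part of these cell markers in the lower ankyrin and spectrin levels was not tested.

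The make-up of the families was also compared between the adult groups. Sptb made up 33.9% and 33.4% of the 3 summed beta chains in miR-1247 libraries, against 42.4% and 40.6% in control libraries. The share of the Sptbn4 locus was 16.5% and 17.0% in miR-1247 libraries, against 12.3% and 13.4% in control libraries, without overlap, while control libraries overlapped with E18 libraries (12.5% and 13.0%). Ank1 made up 31.6% and 27.6% of the summed ankyrins in miR-1247 libraries, against 26.4% and 26.6% in control libraries. The share of Ank2 overlapped between the groups, at 48.2% and 51.2% in miR-1247 libraries and 50.9% and 50.3% in control libraries. The ratio of Sptan1 to these beta chains was 0.503 and 0.473 in miR-1247 libraries, against 0.399 and 0.417 in control libraries, and that of Add2 to Add1 was 0.297 and 0.311, against 0.388 and 0.374.

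The miR-1247 libraries were also set against the E18 libraries, which the first comparison shares. All 9 genes were called, 3 higher (Ank1, Sptb and the Sptbn4 locus) and 6 lower. Of all genes 69.9% were called in this comparison, 28.4% higher and 41.5% lower. Sptb was at a log2 fold change of 0.94 ± 0.080 over E18 in miR-1247 RGCs, beside 1.74 ± 0.080 in control RGCs. Ank2 was at −0.51 ± 0.054 over E18 in miR-1247 RGCs, beside −0.052 ± 0.054 in control RGCs. Ank3 was at −0.79 ± 0.080, beside −0.22 ± 0.080 in control RGCs. Add1 lost its call in this comparison under median ratio scaling (−0.10, adjusted p = 0.147).

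Genes that work with ankyrins and spectrins were described from 4 lists, in which 44 of 48 genes had tested values. In adult control against E18 RGCs 21 of the 44 were called higher and 18 lower, with a median log2 fold change of 0.30, beside 29.8% higher and 40.2% lower among all genes. These counts include Epb41, which is listed at 0 in the adult. The list of membrane partners, the channels and adhesion molecules that ankyrins and their neighbours anchor, had 9 higher and 7 lower of 17, with a median of 0.99. The largest changes among them were those of the potassium channels Kcna1 and Kcna2, the sodium channel beta subunit Scn2b and the sodium channel Scn1a. Kcna1 had 33.9 and 34.3 FPKM in control libraries, against 0.843 and 1.49 FPKM in E18 libraries (log2 fold change 4.03 ± 0.19). Scn2b had 63.4 and 61.0 FPKM in control libraries, against 4.01 and 4.35 FPKM in E18 libraries (3.61 ± 0.086). Kcna2 (3.32 ± 0.12) and Scn1a (2.69 ± 0.11) were higher in control as well. The 7 that were lower, listed here after their values were seen, were Scn3a, Scn3b, Cntnap2 and the 4 adhesion molecules of the L1 family, Nfasc (−0.64), Nrcam (−1.13), L1cam (−1.60) and Chl1 (−2.28).

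Of 12 cytoplasmic genes of the initial segment 4 were higher and 6 lower in control RGCs, with a median of −0.13. Beside this count and the next stand 29.8% higher and 40.2% lower among all genes. Fgf14, which binds sodium channels, had 32.7 and 32.4 FPKM in control libraries, against 3.91 and 3.81 FPKM in E18 libraries (log2 fold change 2.79 ± 0.10). Dlg2, a scaffold protein whose entry also carries the name Gm45159, was higher by 2.14 ± 0.053. The microtubule end protein Mapre1 had 9.00 and 8.67 FPKM in control libraries, against 50.4 and 49.1 FPKM in E18 libraries (−2.37 ± 0.097). Trim46, which bundles microtubules at the initial segment, was lower by 1.56 (SE 0.14). Of 11 other genes of the membrane skeleton 5 were higher and 4 lower, Epb41 included, with a median of 0.34. Besides Add3, the actin bundling protein Dmtn was higher in control (1.08 ± 0.11) and the actin capping protein Tmod3 lower (−1.04 ± 0.12). Epb41, the protein 4.1R that joins spectrin to actin, was listed at 0 in all 4 adult libraries and had 52.7 and 53.6 FPKM in E18 libraries. Such a 0 may be a failed estimate.

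Of 4 genes for cleavage of spectrin, 3 were higher and 1 lower in control RGCs, beside 29.8% higher and 40.2% lower among all genes. The calpain Capn2 had 18.6 and 20.7 FPKM in control libraries, against 48.1 and 41.1 FPKM in E18 libraries (log2 fold change −1.14 ± 0.11). The calpain inhibitor Cast (1.11 ± 0.22), the small calpain subunit Capns1 (0.60 ± 0.077) and the calpain Capn1 (0.41 ± 0.14) were higher in control.

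In miR-1247 against control RGCs 12 of the 44 partner genes were called lower and none higher (limma), with 21 lower and 3 higher at an unadjusted p under 0.05. Of all genes 6.22% were called lower and 3.53% higher at the adjusted threshold. These shares stand beside the 12 and not beside the 21 and 3, for which no share of all genes is given. The median log2 fold change of the 44 was −0.17. Under median ratio scaling 12 were lower and 2 higher. Of the 12, the membrane partners gave 8, among them Scn1a, with 25.8 and 22.2 FPKM in miR-1247 libraries, against 42.3 and 42.6 FPKM in control libraries (−0.80 ± 0.11). Kcna2 (−0.66 ± 0.12), the axonal adhesion molecule Cntn1 (−0.63 ± 0.073) and the sodium channel Scn2a (−0.60 ± 0.10) were also lower. The remaining 4 were Fgf12 (−0.71 ± 0.11), which binds sodium channels, Tmod2 (−0.54 ± 0.062), Capn2 (−0.58 ± 0.11) and Capns1 (−0.51 ± 0.077). The count of 12 became 1 without miR-1247 library 1 and 0 without miR-1247 library 2. Leaving out control library 1 gave 3, leaving out the other control library 2, and no variance trend 4. RGC and other cell markers moved in these libraries as given above.

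**Figure D4:**
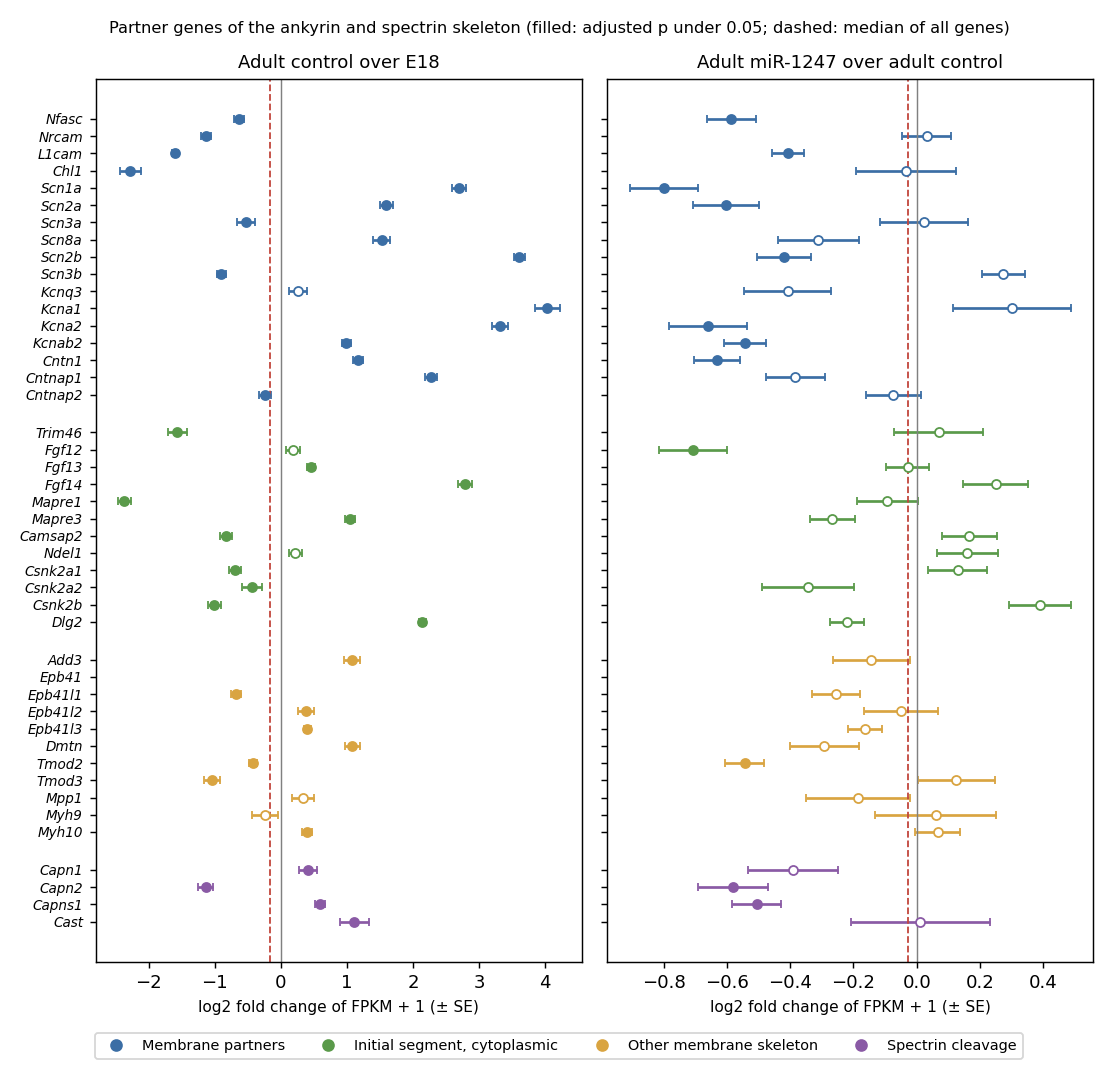
Log2 fold change of FPKM + 1 with its SE for the partner genes of 4 lists, adult control over E18 (left) and adult miR-1247 over adult control (right). Filled points passed an adjusted p of 0.05, the dashed line is the median of all genes, and Epb41 has no point because it is listed at 0 in the adult libraries. On the left the membrane partners run from Chl1 at −2.28 to Kcna1 at 4.03, and on the right every filled point lies below 0.

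For members of the family, the gene with the most similar profile over the 6 libraries was found by Euclidean distance between centred log2(FPKM + 1) values, among 9978 others. The smallest distance was between Sptbn1 and Rab6a (0.025), a GTPase of Golgi transport, at 157 FPKM in miR-1247, 205 FPKM in control and 221 FPKM in E18 RGCs on average. Ank1 was nearest to the potassium channel gene Kcnj12 (0.16), Ank2 to Nckap1 (0.095) and Ank3 to Trappc11 (0.095). Sptan1 was nearest to Arhgap42 (0.056), but the adult means of Arhgap42, 0.321 FPKM in miR-1247 and 0.583 FPKM in control RGCs, lie below the 1 FPKM that was added, which compresses its differences, so the likeness does not extend to fold changes of FPKM. Sptb had the least similar neighbour, Luzp1 (0.22). The Sptbn4 locus was nearest to Galnt1 (0.063) and Add2 to Smarcc1 (0.10).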

How the data were processed

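The deposited table holds FPKM values, 1 column for each of 6 libraries. Per the submitters' processing notes and the labels, the authors mapped reads of 100 bases from each end to mm39 with HISAT2 and computed FPKM with Cufflinks and Cuffdiff. Versions and the filter behind the 11104 entries are not given in the sources used here. The authors had added 1e-05 to every deposited FPKM entry, which was taken off. The 2 deposited log2 ratio columns were within 0.003 of ratios recomputed from the FPKM values and served for that check alone. The RNA integrity number was at least 9, per the labels.

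Distinct loci of a gene name were summed, and names with the same loci were taken once. Genes with a mean of at least 1 FPKM were tested, 9987 in all. A linear model with a mean for each of the 3 groups was fitted to log2(FPKM + 1) of the 6 libraries by limma 3.58.1 (R 4.3.3), with a variance trend, two-sided tests and Benjamini-Hochberg adjustment over all tested genes, called at 0.05. Log2 fold changes subtract group means of log2(FPKM + 1), so they understate the change of weak genes, and ± marks the SE. Plain fold values are ratios of mean FPKM. The model was tested on simulated data. A count model could not be used without counts. Start coordinates are 1 above those of the table, which counts from 0. GENCODE vM39 is on the same build. Python 3.11.15 (pandas 2.3.3, NumPy 2.4.6) prepared the tables and Matplotlib 3.10.9 the plots.

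The 9 genes, the partner and marker lists, the naming rule and the alternatives were chosen with earlier results of these data known. The rule for naming partner genes takes, for each list and comparison, the 4 called genes with the largest change and any gene listed at 0 in a group. Alternatives were another pseudocount (0.1), no filter, a filter of 5 FPKM, median ratio scaling, equal totals, single loci, no variance trend, only the 4 libraries compared, a replicate block, and each library left out. Some genes are not reported here, and the list counts and family sums leave them out.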

Additional observations from a re-analysis of the deposited data

How the results depend on the processing

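Of the alternatives, those that moved a count of calls by over 1.5 times concern miR-1247 against control RGCs. With no variance trend, 2 of the 9 genes were called and not 6, 4 partner genes and not 12, and 343 genes in all and not 974. The total was 347 with only the 4 adult libraries. Leaving out 1 library at a time gave 1 to 4 of the 9 genes, 0 to 9 partner genes and 121 to 242 genes in all, where the lone library of a group is assumed to vary like the others. Equal totals moved the median of all genes in this comparison to −0.12 (log2), beside −0.029 as deposited. Changes of sign were seen for genes that were not called. Between control and E18, Ank2 was at 0.10 under median ratio scaling and 0.027 with equal totals, and Sptbn1 at 0.068 under median ratio scaling. Between miR-1247 and control, Add1 was at 0.011 under median ratio scaling and ran from −0.058 to 0.0067 with 1 library left out. Same-numbered libraries did not deviate together (r from −0.0081 to 0.0035 across 9987 genes). So low an r cannot show whether such libraries were prepared together. With a replicate block 584 genes were called between miR-1247 and control, 4 of the 9 genes (Sptan1 and Add2 lost their calls) and 10 partner genes. Between control and E18 the block gave 6 of the 9 genes, without Ank3. With the depth unknown, precision is limited to the spread between 2 libraries a group.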
